A study of Mus musculus with 4 samples.

Results

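Respiratory complex I (NADH:ubiquinone oxidoreductase) is the first enzyme of the mitochondrial electron transport chain. It passes electrons from NADH to ubiquinone through a chain of iron-sulfur clusters in a matrix arm and pumps protons through a membrane arm. Most of its subunits are encoded in the nucleus, and the promoters of such genes are commonly described as bound by NRF1, GABPA (NRF-2), YY1 and ERR alpha. Open chromatin at 35 nuclear genes of complex I subunits was examined, all 35 of which were matched by symbol among 21883 protein-coding genes. They were chosen by membership of the enzyme, with earlier results of these data known.

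The libraries are ATAC-seq profiles of dermal fibroblasts from C57BL/6 mice, in which the Tn5 transposase inserts adapters into accessible DNA. Sod2 encodes the superoxide dismutase of the mitochondrial matrix. Fibroblasts labelled as lacking it through a conditional allele (Sod2-/-) were compared with Sod2+/+ control fibroblasts. Sod2+/+ fibroblasts given rotenone, labelled at 250 µM, were compared with Sod2+/+ fibroblasts given vehicle. Rotenone is an inhibitor that acts at the ubiquinone site of complex I. Each of the 4 groups has 1 library, and all are labelled 100 days, without saying what the days count. The sources used here name neither the Cre line, nor the vehicle's composition, nor the number of animals. A difference between libraries therefore has no replicate check, and no p-value is given. Vehicle against Sod2+/+ control, which differ in neither Sod2 nor rotenone, serves as a measure of how far 2 such libraries lie apart. They are not replicates, as only 1 of them is labelled with vehicle. An effect of the vehicle cannot be told apart from other differences between these libraries. The pair shares a library with each of the other comparisons.

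The authors' lists held 585165 peaks in Sod2-/-, 433013 in Sod2+/+ control, 347438 in rotenone and 340240 in vehicle. Of these, 150, 105, 83 and 87, in the same order, had their midpoint inside a complex I gene or within 1000 bp of it. The fold (enrichment over background) and −log10 p are the authors' values for each peak, the number of reads behind them is unknown, and libraries are compared here through ranks within each list, with the folds given beside them. For each gene the gene end peak with the highest −log10 p, with its midpoint within 1000 bp of either end of the gene, was taken, and its percentile among all protein-coding genes was recorded, 100 being the strongest. A gene end peak among the 30000 highest ranked of its library was called strong. The limit of the strong list stood at a −log10 p of 16.0 in Sod2-/-, 21.7 in Sod2+/+ control, 12.3 in rotenone and 18.2 in vehicle. A peak of the same −log10 p could thus be strong in one library and not in another. Sod2 itself had a strong gene end peak in all 4 libraries, at percentile 89.1 in Sod2-/- and 88.6 in Sod2+/+ control, and at 89.9 in rotenone and 88.1 in vehicle. The deleted part of the gene is not given, so this peak does not check the genotype. Of 11 dermal fibroblast markers, 10 had a gene end peak in each library, though not the same 10 in all. Lum had none in Sod2-/-, rotenone and vehicle, and Dcn none in Sod2+/+ control. Only 3 in Sod2-/-, 4 in Sod2+/+ control, 3 in rotenone and 3 in vehicle had a strong gene end peak, and none of 5 immune markers did in any library. Of 6 keratinocyte markers, 2 had one in Sod2-/- and 1 in Sod2+/+ control, and 2 in rotenone and 1 in vehicle. Of 4 endothelial and 4 melanocyte markers, 1 each had one in every library. Of 3 skeletal muscle markers, 1 had one in each library except Sod2-/-, where none had. None of 3 adipocyte markers had one in any library. The part of other cells in the results was not tested.

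The promoter sequences below are shown as examples of starts whose peaks differed between libraries by 10 percentile points or more. They come from RefSeq on GRCm38.p6, the assembly behind mm10, which held 32 of the 35 members (Ndufs1, Ndufa2 and Ndufb9 were not matched). The first set gives the 250 bases upstream of the transcript start of a gene whose peak ranked higher in Sod2-/- and in rotenone (Ndufb4), of one that ranked higher in Sod2-/- (Ndufc2) and of one that ranked lower there (Ndufb2). Capitals mark matches to the letters CGCNTGCG (NRF1) or AAGGTCA (ERR alpha), read on both strands. They lie at chr16:37654369-37654618 (minus strand), chr7:97399753-97400002 (plus strand) and chr6:39592315-39592564 (plus strand).
Ndufb4: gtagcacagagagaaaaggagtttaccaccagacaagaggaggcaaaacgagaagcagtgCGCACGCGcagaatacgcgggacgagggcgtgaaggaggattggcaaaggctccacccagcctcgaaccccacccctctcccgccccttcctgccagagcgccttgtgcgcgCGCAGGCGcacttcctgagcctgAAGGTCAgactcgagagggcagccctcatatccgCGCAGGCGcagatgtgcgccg
Ndufc2: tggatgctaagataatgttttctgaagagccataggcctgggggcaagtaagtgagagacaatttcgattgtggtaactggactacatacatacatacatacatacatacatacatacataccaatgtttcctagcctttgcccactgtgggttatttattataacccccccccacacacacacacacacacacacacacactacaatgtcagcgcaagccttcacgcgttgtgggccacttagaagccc
Ndufb2: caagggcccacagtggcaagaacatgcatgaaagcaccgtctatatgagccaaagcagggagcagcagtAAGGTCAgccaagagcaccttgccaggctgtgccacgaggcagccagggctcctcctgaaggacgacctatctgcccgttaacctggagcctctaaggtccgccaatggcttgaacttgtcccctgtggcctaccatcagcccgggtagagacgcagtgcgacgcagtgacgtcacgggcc

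In Ndufb4, 3 NRF1 matches and 1 ERR alpha match stood between positions −190 and −14, counted from the start, Ndufb2 held 1 ERR alpha match, and Ndufc2 held none of the letters searched. Over the 300 bases from 250 upstream to 50 downstream, NRF1 letters were found in 10 of 32 members (31.3%), against 12.5% of 17491 genes in the promoter table. YY1 letters (AANATGGCG) were found in 7 of 32 members (21.9%), against 3.64% of genes. GABPA letters (CCGGAAG) were found in 4 of 32 (12.5%), against 12.9%, and ERR alpha letters in 3 of 32 (9.38%), against 4.73%. Of 16 genes of complexes II to IV with a promoter, NRF1 letters stood in 6, YY1 in 0, GABPA in 7 and ERR alpha in 1. Of 15 assembly factors they stood in 5, 3, 5 and 0, in the same order. The median GC content of these windows was 59% in members and 56.3% in all genes, and the median CpG count was 19.5 and 13. The part of GC content and CpG count in these shares was not tested, and a match is not a bound site. The letters were settled after 7 forms had been counted. NRF1 was first searched with G before and C after its letters, which 7 of 32 members held (21.9%), against 7.17% of genes. With G before and A in place of N it was found in 2 (6.25%), against 2.61%. YY1 with G in place of N was found in 5 (15.6%), against 2.14% of genes.

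The YY1 matches are printed because 5 of the 7 stand 23 to 44 bases after the transcript start and share the letters AAGATGGCG on the gene's own strand. Each line gives 30 bases with the match in capitals.
Ndufs7 (chr10:80249462-80249491, + strand): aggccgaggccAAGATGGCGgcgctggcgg
Ndufc1 (chr3:51408915-51408944, - strand): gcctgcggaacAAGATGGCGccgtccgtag
Ndufa9 (chr6:126849097-126849126, - strand): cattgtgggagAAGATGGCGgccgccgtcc
Ndufs6 (chr13:73328433-73328462, - strand): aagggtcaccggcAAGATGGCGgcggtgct
Ndufs4 (chr13:114388045-114388074, - strand): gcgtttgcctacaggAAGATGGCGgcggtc
Ndufa7 (chr17:33824616-33824645, + strand): ggagcggaaggAATATGGCGtccgctactc
Ndufb11 (chrX:20617812-20617841, - strand): gtcaccaacacAAAATGGCGacgagaagag

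In Ndufa7 and Ndufb11 the match differed by 1 letter from the other 5. It lay upstream of the start in Ndufb11, and between both listed starts in Ndufa7. An NRF1 match near the start is shown for 3 members.
Ndufa8 (chr2:36049329-36049358, - strand): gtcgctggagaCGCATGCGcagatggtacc
Ndufs6 (chr13:73328479-73328508, - strand): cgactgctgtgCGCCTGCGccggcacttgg
Ndufb10 (chr17:24724406-24724435, - strand): tcacctttctgCGCAGGCGtagaggtcccg

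Complex I genes carried strong gene end peaks more often than genes at large in every library. A strong peak stood at 27 of 35 members in Sod2-/- (77.1%) and at 24 in Sod2+/+ control (68.6%). In rotenone it stood at 30 (85.7%) and in vehicle at 23 (65.7%). Over all protein-coding genes the shares were 35.8% in Sod2-/-, 35.6% in Sod2+/+ control, 36.5% in rotenone and 35.6% in vehicle. Related genes did so too: the share was 83.3% to 88.9% of 18 assembly factors and 65.2% to 73.9% of 23 genes of complexes II to IV, over the 4 libraries. The median complex I gene lay at percentile 73.5, 74.2, 75.8 and 72.9 in the same order. The peak was strong in all 4 libraries at 22 members (62.9%, against 29.7% of all genes) and in none at 5 (14.3%, against 57.5%). The lists reach down to weak peaks, so nearly every member had some gene end peak: 35 in Sod2-/-, 35 in Sod2+/+ control, 34 in rotenone and 34 in vehicle.

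**Figure D1:**
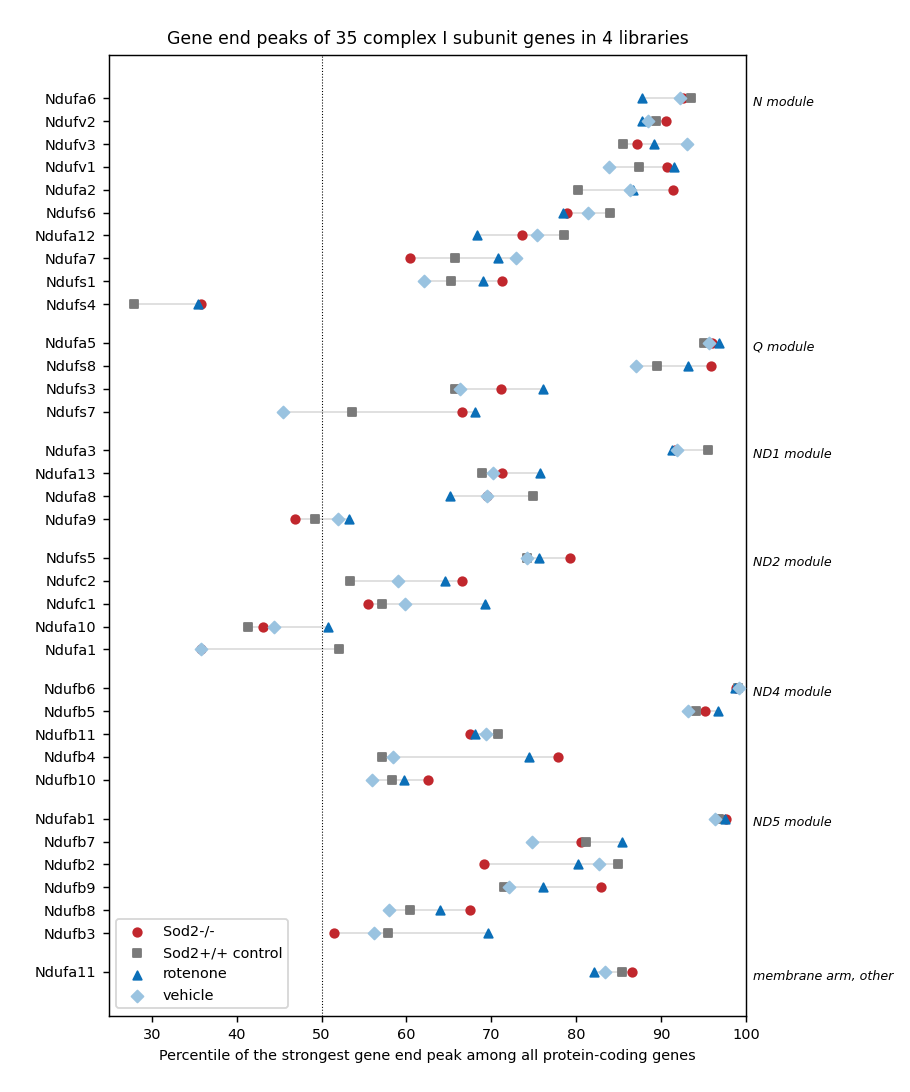
Percentile of the strongest gene end peak among all protein-coding genes (horizontal axis) for 35 complex I genes, grouped by assembly module; each point is 1 library, and no point is drawn where a library had no such peak. Most members keep their place over the 4 libraries, while Ndufs7, Ndufb4, Ndufb3, Ndufb2 and Ndufa1 spread by more than 15 points.

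The matrix arm begins with the N module, which binds NADH and its flavin. Modules are named here as in human cells. Of its 10 members, 7 had a strong peak in all 4 libraries: Ndufv1, which carries the flavin and the NADH site, the iron-sulfur subunit Ndufv2, and Ndufv3, Ndufs6, Ndufa2, Ndufa6 and Ndufa12. Ndufv2 kept the percentiles 90.5 in Sod2-/-, 89.4 in Sod2+/+ control, 87.7 in rotenone and 88.4 in vehicle. Ndufs1, the largest iron-sulfur subunit, was just outside the strong list in vehicle (rank 34075) and inside it in the other libraries. Ndufa7 was outside only in Sod2-/- (rank 37239). Ndufs4, an accessory subunit whose loss causes a Leigh-like disease in mice and humans, stood apart from the module. Its gene end peak had a fold of 2.29 in Sod2-/-, 2.17 in Sod2+/+ control and 2.60 in rotenone, and none was called in vehicle. It had the lowest mean percentile of all 35 members and the lowest GC content among the promoters (45.3%), and its strongest open region lay inside the gene.

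That region of Ndufs4, at chr13:114362147-114362334 in the Sod2-/- list, had a fold of 4.80 in Sod2-/- (rank 23057), against 4.53 in Sod2+/+ control (rank 39872). In rotenone its fold was 6.41 (rank 14141), against 5.95 in vehicle (rank 25024). It was strong in all but the Sod2+/+ control library, and its rank was better in Sod2-/- and in rotenone than in the library each was set against. The rank was also better in vehicle than in Sod2+/+ control, with neither Sod2 nor rotenone differing.

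The Q module passes electrons to ubiquinone. Ndufa5, an accessory subunit, stood between percentiles 95.1 and 96.8 in all libraries, and Ndufs8, an iron-sulfur subunit, between 87.0 and 95.8. Ndufs3 was strong in all 4. Ndufs7, which holds the last iron-sulfur cluster before ubiquinone, was strong in Sod2-/- and in rotenone only, and is described with the comparisons.

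In the proximal membrane arm, 3 of 4 members of the ND1 module were strong in every library, with Ndufa3 between percentiles 91.2 and 95.5. Ndufa9, at the junction of both arms, was strong in none and lay between 46.9 and 53.3. At Ndufa13 the strongest peak differed in place. It lay upstream at −1443 to −782 from the start in Sod2-/- (fold 4.63) and at −1469 to −989 in rotenone (fold 5.42). In Sod2+/+ control and in vehicle it was the peak over the start, with folds of 5.16 and 5.46. Its percentile (71.2 in Sod2-/-, 68.9 in Sod2+/+ control, 75.8 in rotenone, 70.2 in vehicle) thus compares different regions.

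The ND2 module had the weakest peaks of the enzyme: 1 of its 5 members, Ndufs5, was strong in every library, and 2, Ndufa10 and the X-linked Ndufa1, in none. The median over its members of the mean percentile was 60.4, against 83.4 in the N module and 80.6 in the Q module. Ndufa1 had a fold of 2.29 in Sod2-/- against 3.84 in Sod2+/+ control, and no gene end peak in rotenone against a fold of 2.73 in vehicle. It is the only member without a gene end peak in rotenone. The Sod2+/+ control peak of Ndufa1 was 233 bp wide and covered its start, while the peaks of Sod2-/- and vehicle were 44 and 54 bp wide and lay upstream.

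In the distal membrane arm, Ndufb6, Ndufb5 and Ndufb11 of the ND4 module and Ndufab1, Ndufb7, Ndufb2 and Ndufb9 of the ND5 module were strong in every library. Ndufb10 was strong in none, with ranks from 32779 in Sod2-/- to 46590 in vehicle. Ndufab1, the mitochondrial acyl carrier protein, had folds of 13.5 in Sod2-/- and 11.9 in Sod2+/+ control, and of 13.1 in rotenone and 12.1 in vehicle. Ndufb6 ranked highest of all members, but its strongest peak lay far from its own start, at 9416 to 9907 bases in Sod2-/-, over the starts of Topors and Smim27 at the other end of the gene. The peak at its own start was also strong, with folds of 5.92 in Sod2-/-, 6.08 in Sod2+/+ control, 6.54 in rotenone and 6.39 in vehicle. Ndufa11, a membrane arm subunit placed in no module here, was strong in every library.

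Many of these peaks are shared with a neighbour. At 13 of 35 members the strongest gene end peak covered an end of another protein-coding gene in some library, and at 9 it covered another transcript start, such as Eef1b2 at Ndufs1, Rps28 at Ndufa7, Kbtbd4 at Ndufs3 and Mrpl47 at Ndufb5. At such sites the opening cannot be given to one gene of the pair. Of the 32 members with a known start, 26 had their strongest peak over it in all 4 libraries and 3 (Ndufb6, Ndufa11 and Ndufb3) in none.

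In Sod2-/- against Sod2+/+ control, 5 of 35 members ranked higher by 10 percentile points or more and 2 ranked lower, with 28 within 10 points. Over the 15037 genes with a gene end peak in both libraries, 10.4% ranked higher and 11% lower by that much. The members' 5 (14.3%) and 2 (5.71%) are read against these shares and are not far from them. The median shift of the members was 1.15 points, against −0.14 over all genes. Strong gene end peaks entered the list at 4 of 35 members (Ndufb4, Ndufb8, Ndufc2 and Ndufs7), against 3.88% of all genes. They left it at 1 (Ndufa7), against 3.71%. These shares of all genes include genes without a gene end peak: 74.6% had one in Sod2+/+ control, against all 35 members. The members that ranked higher came from 5 modules and were Ndufb4, Ndufc2, Ndufs7, Ndufb9 and Ndufa2.

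Ndufb4 (gene ID 68194, chr16:37647602-37654368) encodes an accessory subunit of the ND4 module and had the largest difference. Its strongest peak had a fold of 6.06 over 280 bp in Sod2-/-, against 4.32 over 891 bp in Sod2+/+ control. It lay at percentile 77.9 in Sod2-/- and 57.2 in Sod2+/+ control, a difference of 20.7 points. The Sod2-/- peak ran from −247 to 32 relative to the start and covered all 3 NRF1 matches printed above. In Sod2+/+ control 1 peak ran from −370 to 520, so the stretch inside the gene was called as part of the same peak there. A separate weak peak of fold 2.84 was called 184 to 317 bases downstream in Sod2-/-.

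The same form was seen at Ndufc2 (gene ID 68197, chr7:97400003-97407800), an accessory subunit of the ND2 module. Its peak had a fold of 4.32 over 175 bp in Sod2-/-, against 3.82 over 746 bp in Sod2+/+ control, and ranked 13.2 points higher. Ndufb9 had a fold of 6.86 over 263 bp in Sod2-/-, against 5.84 over 616 bp in Sod2+/+ control, and ranked 11.5 points higher. Ndufa2 had a fold of 9.36 over 274 bp in Sod2-/-, against 7.43 over 872 bp in Sod2+/+ control, and ranked 11.1 points higher. In these 4 members a narrower peak with a higher fold stood in place of a wide one. In vehicle the peak was also narrower and higher than in Sod2+/+ control at all 4. It had a fold of 4.89 over 193 bp at Ndufc2 and 6.43 over 484 bp at Ndufb9. At Ndufa2 the vehicle fold was 9.36 over 572 bp, and at Ndufb4 it was 4.68 over 768 bp. Part of this form was thus seen with neither Sod2 nor rotenone differing. Peaks were narrower in Sod2-/- at 29 of 35 members, or 82.9%, against 74.8% of all genes, with a median width ratio of 0.765, against 0.814 over all genes.

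When genes were ranked instead by fold times width summed over all their gene end peaks, a measure chosen after seeing these widths, the same 4 members ranked lower in Sod2-/-. The shift was then −4.67 points for Ndufb4, −5.22 for Ndufc2, −3.18 for Ndufb9 and −10.2 for Ndufa2. By this measure 2 members ranked higher by 10 points (Ndufs7 and Ndufv1, 10.1) and 3 lower (Ndufa1, −12.2, Ndufs5, −11.0, and Ndufa2), against 6.34% and 8.31% of all genes. Ndufs5 had shifted by 5.15 points by its strongest peak. The summed fold times width of Ndufb4 was 2079 over 414 bp of peaks in Sod2-/-, against 4017 over 963 bp in Sod2+/+ control. The direction at these genes thus depends on whether genes are ranked by the −log10 p of the strongest peak or by the summed fold times width. How the peak caller's joining of neighbouring peaks bears on the widths was not tested.

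Ndufs7 (gene ID 75406, chr10:80249105-80256794) did not share that form. Its peak was 522 bp wide in Sod2-/- and 517 bp wide in Sod2+/+ control, and ran from −456 to 65 relative to the start in Sod2-/- and from −452 to 64 in Sod2+/+ control. The fold was 4.50 in Sod2-/- (rank 26217), against 3.99 in Sod2+/+ control (rank 52738), and the gene ranked 13.1 points higher. Under fold times width it still ranked 12.4 points higher.

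Ndufb2 (gene ID 68198, chr6:39592565-39599843), an accessory subunit of the ND5 module, had the lowest ratio of folds of the 35 members. Its peak had a fold of 4.49 over 861 bp in Sod2-/-, against 8.80 over 770 bp in Sod2+/+ control. The log2 ratio of the folds was −0.97, and −0.76 relative to the median of all genes, which was −0.21. The gene shifted by −15.8 points, and by −5.71 under fold times width. In rotenone and vehicle its folds were 6.89 and 8.32. Ndufa1 shifted by −16.2 points, on the narrow weak peaks described above. The next lowest shifts, Ndufb3 (−6.41 points), Ndufa8 (−5.50) and Ndufa7 (−5.35), were within 10 points.

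**Figure D2:**
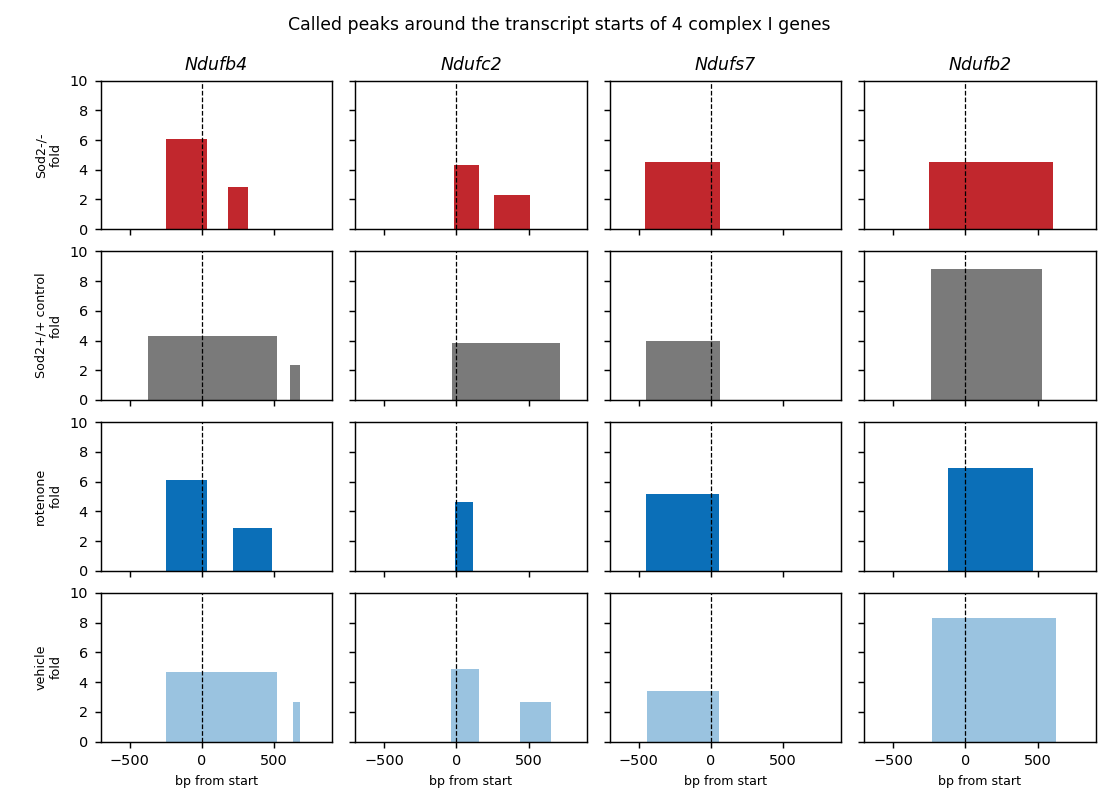
Called peaks around the transcript start (dashed line) of Ndufb4, Ndufc2, Ndufs7 and Ndufb2 in Sod2-/-, Sod2+/+ control, rotenone and vehicle, with distance from the start in bp on the horizontal axis and the authors' fold as bar height. The Ndufb4 peak is about 280 bp wide in Sod2-/- and rotenone and 768 bp or more in Sod2+/+ control and vehicle, the Ndufs7 peak has nearly the same width in all 4, and the Ndufb2 peak is lowest in Sod2-/-.

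In rotenone against vehicle, 33 members had a gene end peak in both libraries. Of these, 4 ranked higher by 10 points or more (Ndufs7, Ndufb4, Ndufb3 and Ndufb7) and none ranked lower. Over 14206 genes, 10.4% ranked higher and 10.6% lower. The 4 of 33 (12.1%) are near the first share, and the absence of lower ranks among 33 stands beside the second. The median shift was 1.43 points, against 0.03 over all genes. It was 1.15 in Sod2-/-, and −1.08 between vehicle and Sod2+/+ control, which is of similar size with neither Sod2 nor rotenone differing. Strong gene end peaks entered the list at 7 of 35 members, against 4.52% of all genes, and left it at none, against 3.57%. Of all genes 72.3% had a gene end peak in vehicle, against 97.1% of members, so these shares rest on unlike bases. The 7 were Ndufs1, Ndufs7, Ndufb4, Ndufb8, Ndufc2, Ndufc1 and Ndufb3, which held ranks from 34075 to 87439 in vehicle.

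At Ndufs7 the fold was 5.16 over 503 bp in rotenone (rank 23701), against 3.43 over 501 bp in vehicle (rank 87439), and the gene ranked 22.6 points higher. This peak, at chr10:80249000-80249502 in rotenone, is the only strong region at a complex I gene that overlapped none of the 60000 highest ranked peaks of vehicle. The log2 ratio of the folds was 0.59, and 0.74 relative to the median of all genes, which was −0.15. Under fold times width the shift was 16.9 points. Vehicle minus Sod2+/+ control was −8.08 points at this gene, and rotenone, at percentile 68.1, stood above both vehicle (45.5) and Sod2+/+ control (53.5).

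Ndufb4 in rotenone repeated the shape seen in Sod2-/-. Its peak had a fold of 6.11 over 281 bp in rotenone, against 4.68 over 768 bp in vehicle, and ran from −247 to 33 relative to the start. It ranked 16.0 points higher, and shifted by −0.96 points under fold times width. Ndufb3, an accessory subunit of the ND5 module, ranked 13.5 points higher, with a fold of 5.35 over 129 bp in rotenone and 4.59 over 143 bp in vehicle. That peak covers the start of Fam126b on the other strand. A second peak, 117 to 237 bases downstream of the Ndufb3 start in vehicle, was not called in rotenone. With its peaks summed by fold times width, the gene shifted by −1.27 points. Ndufb7 ranked 10.7 points higher, with a fold of 7.81 over 525 bp in rotenone against 6.82 over 821 bp in vehicle, and shifted by 0.48 points under fold times width.

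**Figure D3:**
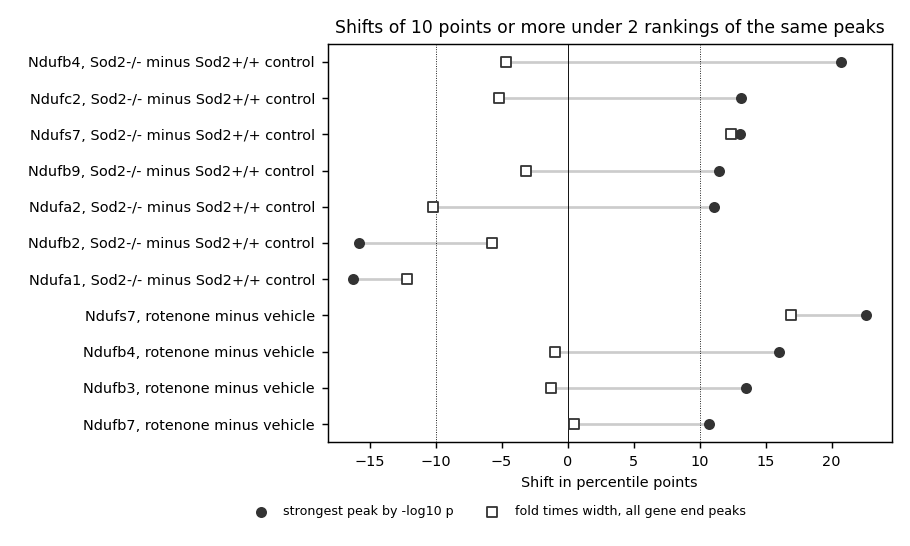
Shift in percentile points for each member that moved by 10 points or more, as reported (filled circles, strongest peak by −log10 p) and with genes ranked by fold times width summed over their gene end peaks (open squares); dotted lines mark 10 points. Ndufs7 keeps a shift above 10 points in both comparisons, and Ndufb4 passes from above 10 to below 0 in both.

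Entry to the strong list did not always go with a higher fold. Ndufb8 had folds of 4.45 over 201 bp in Sod2-/- and 4.78 over 248 bp in Sod2+/+ control. They were 4.66 over 234 bp in rotenone and 4.69 over 173 bp in vehicle. It was strong only in Sod2-/- and rotenone, where the −log10 p at the limit of the list stood lower. Its rank was better there, at 25035 in Sod2-/- against 36832 in Sod2+/+ control, and 29615 in rotenone against 42038 in vehicle. The part of the limit in this was not tested. Ndufc1 was strong only in rotenone, with a fold of 5.29 over 159 bp, against 4.93 over 422 bp in vehicle. In Sod2-/- its fold was 3.35, against 4.32 in Sod2+/+ control. The members nearest the limit were Ndufc2 inside and Ndufb10 outside in Sod2-/-, Ndufs1 and Ndufb8 in Sod2+/+ control, Ndufb8 and Ndufb10 in rotenone, and Ndufs3 and Ndufs1 in vehicle. The lowest shift in rotenone was −7.06 points at Ndufa12, with a fold of 4.94 over 718 bp in rotenone, against 7.29 over 466 bp in vehicle. Under fold times width Ndufa12 shifted by 9.42 points, and the lowest shift was that of Ndufa3 (−18.6). After Ndufa12 by strongest peak came Ndufa6 (−4.56), Ndufa8 (−4.38), Ndufv3 (−3.88) and Ndufs6 (−2.93). All 5 belong to the N module except Ndufa8. Of the 9 N module members with a peak in both libraries, 3 lay higher in rotenone and 6 lower, against 50.3% of all genes higher. In Sod2-/- it was the other way, with 6 of 10 higher, against 48.9% of all genes. These N module counts are by strongest peak and did not hold under fold times width. In rotenone Ndufv1 (5.33 points), Ndufv2 (4.38), Ndufv3 (1.40), Ndufs6 (3.47), Ndufa6 (3.06), Ndufa7 (7.08) and Ndufa12 then lay higher. Only Ndufs1 (−2.90) and Ndufa2 (−5.82) then lay lower. In Sod2-/- the N module members lay in both directions by that measure. All 4 Q module members lay higher in both comparisons.

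The 2 comparisons share no library. With a gene end peak in all 4 libraries, 33 members could be set side by side: 17 lay higher in both (51.5%, against 32.6% of 13592 genes), 9 lower in both (27.3%, against 33.6%) and 7 moved in opposite directions. Higher by 10 points in both were 2 of 33 (6.06%), Ndufs7 and Ndufb4, against 3.22% of all genes. Ndufb3 differed most between the comparisons, at −6.41 points in Sod2-/- and 13.5 in rotenone. These counts are by strongest peak. By fold times width the median shift of the members was −0.70 points in Sod2-/- and 0.72 in rotenone, opposite in sign. The medians over all genes were then 0.15 and 0.26. Whether any of the differences between comparisons exceeds the error of a library was not tested.

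**Figure D4:**
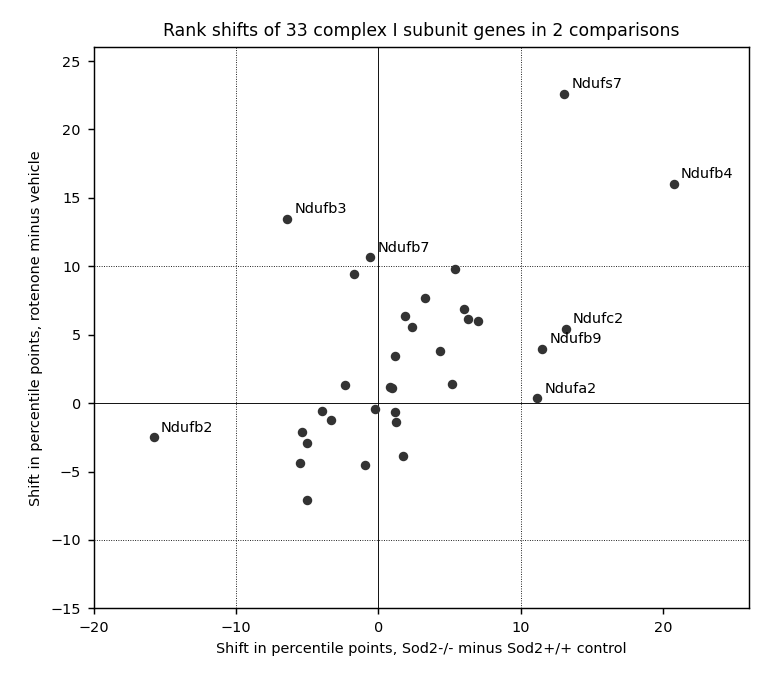
Shift in percentile points of 33 complex I genes in Sod2-/- minus Sod2+/+ control (horizontal axis) and in rotenone minus vehicle (vertical axis); each point is a gene and dotted lines mark 10 points. Ndufs7 and Ndufb4 are the 2 genes above 10 points on both axes, and Ndufb2 is the only one under −10 on either; Ndufa1 and Ndufs4 are not drawn because a library lacks their peak.

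Vehicle and Sod2+/+ control lay closer together. Of 34 members with a gene end peak in both, none ranked higher and 1 (Ndufa1, −16.2 points) lower by 10 points, against 4.97% and 4.16% of all genes. Over all 35 members no strong gene end peak entered the list (2.48% of all genes) and 1, Ndufs1, left it (2.56%). The 5 highest shifts were those of Ndufv3 (7.58 points), Ndufa7 (7.16), Ndufa2 (6.17), Ndufc2 (5.66) and Ndufa10 (3.07). After Ndufa1 the lowest were those of Ndufs7 (−8.08), Ndufb7 (−6.41), Ndufa8 (−5.49) and Ndufa3 (−3.71). Of the 34, 14 lay above 0 and 20 below. The SD of the shift over all genes was 6.08 points here, against 8.47 in Sod2-/- against Sod2+/+ control and 8.53 in rotenone against vehicle.

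Regions of any position within 1000 bp of a member, rather than gene ends alone, were gained or lost at few places. Strong regions at complex I genes numbered 31 in Sod2-/-, 26 in Sod2+/+ control, 33 in rotenone and 26 in vehicle. In Sod2-/- none was gained, against 4.15% of strong regions at all genes, and 1 was lost, against 6.09%. In rotenone 1 was gained, the Ndufs7 peak, against 5.22%, and 1 was lost, against 6.99%. Between vehicle and Sod2+/+ control none was gained or lost, against 0.859% and 0.67%. The lost region was the same place in both comparisons: chr7:122099292-122099416, inside Ndufab1 with its midpoint 2494 bp from the start. Its fold was 3.06 in Sod2-/- (rank 66547), against 4.84 in Sod2+/+ control (rank 22006). In rotenone the fold was 2.64 (rank 168720), against 4.95 in vehicle (rank 23924). A peak was called in all 4 libraries, so the site was weaker in Sod2-/- and in rotenone, not closed, while the Ndufab1 start was slightly higher there.

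Other genes of oxidative phosphorylation were set beside the subunits. Among 18 complex I assembly factors none passed 10 points in Sod2-/-, with a median shift of −3.88 points. In rotenone 1 did, Tmem186 at −10.7, with a median of −2.70. The assembly factors that differed most in Sod2-/- were Ndufaf2 (−8.80) and Timmdc1 (−8.52), and Ndufaf1 (5.06) and Tmem70 (4.33). Their counterparts in rotenone were Dmac1 (−9.86), Nubpl (4.42) and Ndufaf2 (2.98). By fold times width 2 assembly factors ranked lower by 10 points in Sod2-/-, Dmac1 (−11.1) and Dmac2 (−12.7), and none higher. In rotenone 1 then ranked lower, Dmac1 (−13.2), and none higher. The medians of the assembly factors by that measure were −0.87 in Sod2-/- and −0.27 in rotenone. Of 23 genes of complexes II to IV, 2 ranked higher in Sod2-/-, the complex IV gene Cox5a (23.9 points) and the complex III gene Uqcr10 (18.1), and 2 ranked lower, Cox7b (−16.0) and Uqcrc1 (−10.9). Their median shift was −1.72 points in Sod2-/- and −3.58 between vehicle and Sod2+/+ control. None passed 10 points in rotenone, where the median was 2.77 and the ends were Uqcr10 (8.07), Cox6c (7.64), Sdhc (−4.95) and Cox7b (−8.69). The folds of Uqcr10 were 5.60 over 161 bp in Sod2-/- and 4.21 over 497 bp in Sod2+/+ control, the same narrow and high form as at Ndufb4. Under fold times width the shifts in Sod2-/- were 11.4 for Cox5a, 3.28 for Uqcr10, −7.80 for Cox7b and −7.04 for Uqcrc1, and in rotenone Uqcrc1 (−22.5) and Cox7b (−11.1) ranked lower by 10 points.

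Among 9 regulators of these genes, 8 with a gene end peak in every library, none ranked higher and 3 ranked lower in Sod2-/- and likewise in rotenone, while 1 ranked higher and none lower between vehicle and Sod2+/+ control. In Sod2-/- these were Pprc1 (−14.9 points), Ppargc1a (−14.2) and Ppargc1b (−12.0), the PGC-1 family of coactivators of mitochondrial biogenesis. In rotenone they were Pprc1 (−16.9), the ETS factor gene Gabpa (−11.1) and Tfam (−10.9), which encodes the factor that packages and transcribes mitochondrial DNA. Pprc1 had a fold of 4.74 over 462 bp in Sod2-/-, against 9.10 over 509 bp in Sod2+/+ control. In rotenone its fold was 5.21 over 685 bp, against 10.4 over 261 bp in vehicle. Under fold times width Pprc1 shifted by 9.35 points and Gabpa by 3.87 in rotenone, so both changed direction, while Tfam stayed at −10.7. In Sod2-/- Pprc1 (−1.81), Ppargc1a (−3.17) and Ppargc1b (−4.16) then stayed within 10 points and Tfam shifted by −10.4. Esrra ranked 11.4 points higher in rotenone by this measure. The median of the regulators was then −1.01 in Sod2-/- and 2.78 in rotenone, against −6.87 and −3.77 by strongest peak. By strongest peak the highest shifts were Nrf1 (5.74) and Yy1 (4.76) in Sod2-/-, and Yy1 (7.88) and Esrra (3.00) in rotenone. Tfam ranked 10.2 points higher in vehicle than in Sod2+/+ control, so its percentile in rotenone (79.9) is close to that in Sod2+/+ control (80.5). The shares of all genes given above for each direction and comparison apply to these lists too.

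**Figure D5:**
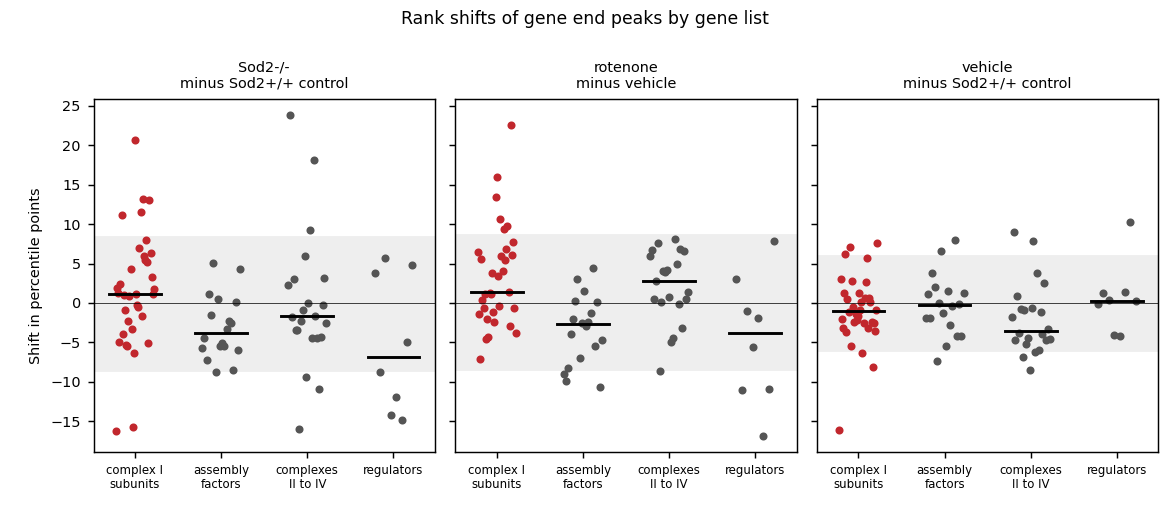
Shift in percentile points of complex I subunits, assembly factors, complexes II to IV and regulators for Sod2-/- minus Sod2+/+ control, rotenone minus vehicle and vehicle minus Sod2+/+ control; points are genes, black bars medians, and the grey band 1 SD of all genes around their median. The median of the complex I subunits is 1.15 and 1.43 points in the first pair of panels, that of the assembly factors −3.88 and −2.70, and that of the regulators −6.87 and −3.77. All shifts drawn are by strongest peak. By fold times width the medians of the regulators were −1.01 and 2.78, and those of the assembly factors −0.87 and −0.27.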

How the data were processed

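One ATAC-seq peak list per library, 4 in all, was analysed. Per the submitters' processing notes, Bowtie2, bedtools, MACS2 and HOMER were used with mm10; the sources used here name no versions, settings or Tn5 shift. The deposited lists have 9 columns and no header, in the order of MACS2 broad peaks; the calling mode is not stated. Column 7 was read as the authors' fold, a ratio over background. Columns 8 and 9 are the authors' −log10 p and −log10 q. The deposited score was not used. Depth is unknown, as the lists hold no read counts. A fold can depend on the called extent of its peak.

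Starts were converted to 1-based positions, and peaks were ranked by −log10 p, then fold. Genes came from RefSeq GRCm38.p6 with 21883 protein-coding genes; 122 of 123 listed genes matched (Coa1 did not). A call was a shift of 10 percentile points; a region was gained or lost if a strong peak overlapped by 1 bp none of the partner's 60000 highest ranked. With 1 library per group no test was made. Values are given for members with the 5 largest differences each way per comparison, changed strong status, a changed region or extreme mean rank, and for the 2 genes of each other list that moved most each way. Members, lists and rules were chosen with earlier results of these data known. The motif letters were settled after several forms had been counted, all of them given in the text. The code was tested on a copy of the Sod2+/+ control list with planted rank changes and removed peaks. Python 3.11.15, numpy 2.4.6, pandas 2.3.3 and matplotlib 3.10.9 were used.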

Additional observations from a re-analysis of the deposited data

How the results depend on the processing

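No paired analysis was possible because each group has 1 library and no value comes from a test.

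The count of strong complex I genes was within 1.5 times of the reported one under every alternative except a list of 15000, which left 17 in Sod2-/-, 19 in rotenone and 14 in vehicle. A call at 5 points gave 11 higher and 7 lower in Sod2-/-, 13 and 1 in rotenone, and 4 and 4 in vehicle against Sod2+/+ control; a call at 20 points gave 1 and 0, 1 and 0, and 0 and 0. With the transcript start only, 3 ranked higher in Sod2-/-. With peaks of at least 100 bp, or autosomes only, 1 ranked lower in Sod2-/-; autosomes only left 0 lower in vehicle against Sod2+/+ control. Ranking by fold gave 1 lower in rotenone.

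Ranking by fold times width, chosen after seeing the data, gave 2 higher and 3 lower in Sod2-/-, 1 higher and 1 lower in rotenone, and 1 higher (Ndufa3, 12.1) and 1 lower (Ndufc2, −10.4) in vehicle against Sod2+/+ control. It turned the median shift in Sod2-/- to −0.70, and those of Ndufb4 (−4.67), Ndufc2 (−5.22), Ndufb9 (−3.18) and Ndufa2 (−10.2) in Sod2-/- and of Ndufb4 (−0.96) and Ndufb3 (−1.27) in rotenone; narrower peaks enter that measure with less area. Ndufs7 stayed 11.3 to 15.3 points higher in Sod2-/- and 16.9 to 26.2 in rotenone over 9 alternatives each.

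Gained and lost regions rest on few peaks. A strong list of 15000 left 0 lost in Sod2-/- and 0 gained and 0 lost in rotenone. One of 60000 gave 4 lost in Sod2-/-, 2 gained and 2 lost in rotenone, and 2 gained and 3 lost in vehicle against Sod2+/+ control. Against all partner peaks none was gained or lost in any comparison. Against the partner's 30000, 7 were gained and 2 lost in Sod2-/-, 8 gained in rotenone, and 1 gained and 1 lost in vehicle against Sod2+/+ control. With 50% of the peak covered, 5 were lost in Sod2-/-, 3 lost in rotenone and 1 gained in vehicle against Sod2+/+ control. Ranking by fold left 0 lost in Sod2-/- and rotenone, peaks of at least 100 bp left 0 lost in Sod2-/-, and a window of 2500 bp gave 3 gained in rotenone. Where the cause is not named it was not tested. The number of reads is unknown, so differences in depth between libraries cannot be told apart from the groups.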
